A study of Mus musculus with 2 samples.

Results

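Apolipoprotein E (Apoe) messenger RNA made up 1% or more of the unique molecular identifiers (UMIs, the tags that count single RNA molecules) in 53 of the 695 cells kept from the uninjured mouse spinal cord library, or 7.63% (exact 95% interval 5.76 to 9.86%). These Apoe-rich cells were chosen by their Apoe share among the barcodes that passed a minimum of 200 genes and a limit of 10% mitochondrial UMIs. They did not form 1 kind of cell by their other genes. In 7 of the 53, or 1.01% of the library, 10 to 72 UMIs came from Mrc1, Pf4, Ms4a7, F13a1 and H2-Aa, genes of macrophages at the borders of the nervous system, and 8 microglia marker genes together made up at most 0.254% of UMIs. The other 46, or 6.62% of the library, held 0 to 2 UMIs of those 5 genes together with microglial genes in every cell. The cells set beside them are the 208 uninjured cells with 0 Apoe UMIs (29.9%, Apoe-0 cells), and 434 more uninjured cells (62.4%) had Apoe UMIs below 1%.

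The cells came from Cx3cr1-CreER::Rosa26-tdTomato+ve mice of C57BL/6J background, in which 4-hydroxytamoxifen (2 intraperitoneal injections of 1 mg at postnatal week 4, in both libraries) releases a CreER recombinase driven by the Cx3cr1 locus, and recombined cells and their progeny keep the red protein tdTomato. Cords were taken 4 weeks after the injections, digested (collagenase, 1 h, 37 °C) and passed through a cell sorter that kept tdTomato-positive cells, with scatter gates against debris and doublets. One library was the uninjured age-matched control, and 1 was made 5 days after a lysolecithin injection, a lipid that strips myelin. The number and sex of the animals behind each library were not stated. The red protein can mark any cell that used the Cx3cr1 locus at the time of induction. The sort can therefore take both microglia and border macrophages, and how evenly it does so was not tested.

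Apoe is a secreted lipoprotein component that carries cholesterol and other lipids between cells, and in the healthy central nervous system astrocytes are its main source. Resting microglia carry little of it, whereas microglia that meet damage, myelin debris or amyloid raise it together with Trem2-dependent lipid and lysosomal genes. Macrophages of the meninges, the choroid plexus and the spaces around vessels carry much Apoe in healthy tissue, and are set apart from microglia by the mannose receptor Mrc1 (CD206), the chemokine Pf4, the membrane protein Ms4a7, the coagulation factor subunit F13a1 and, in some of them, MHC class II.

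Apoe levels in the members describe the choice and are no result. Their Apoe share had a median of 2.18% and a highest value of 19.4%. It lay at 1 to 2% in 25 cells, at 2 to 5% in 16, at 5 to 10% in 10 and at 10% or more in 2. The 5 members nearest the threshold had 1.00, 1.01, 1.03, 1.04 and 1.04% Apoe, and the 5 cells just outside had 0.989, 0.975, 0.955, 0.886 and 0.855%. The 53 cells held 6872 of the 8763 Apoe UMIs of the library (78.4%). The 434 cells below the threshold had a median Apoe share of 0.0703%. Apoe is a protein-coding gene on the minus strand of chromosome 7 (chr7:19696109-19699188 in the GENCODE annotation of GRCm38, as are all positions here), and the kit reads the 3′ end of the transcript.

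The members were deeper than the Apoe-0 cells, with medians of 3481 UMIs (range 647 to 7997) and 2466.5 UMIs. Depth therefore bears on every share of cells given here, and a cell with fewer UMIs has fewer chances to show an Apoe UMI. Mitochondrial UMIs had medians of 2.06% in the members and 1.75% in the Apoe-0 cells, and ribosomal protein UMIs of 14.0% and 10.2%. The uninjured library held 2093084 UMIs in its kept cells, and the libraries shared 0 barcodes. With 1 library for each condition and cells that share a library, no comparison here has a replicate check. No p-value is given, and all intervals are at 95% and cover counting error only. Fewer cells of a kind and less RNA in each cannot be told apart in a summed level.

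**Figure D1:**
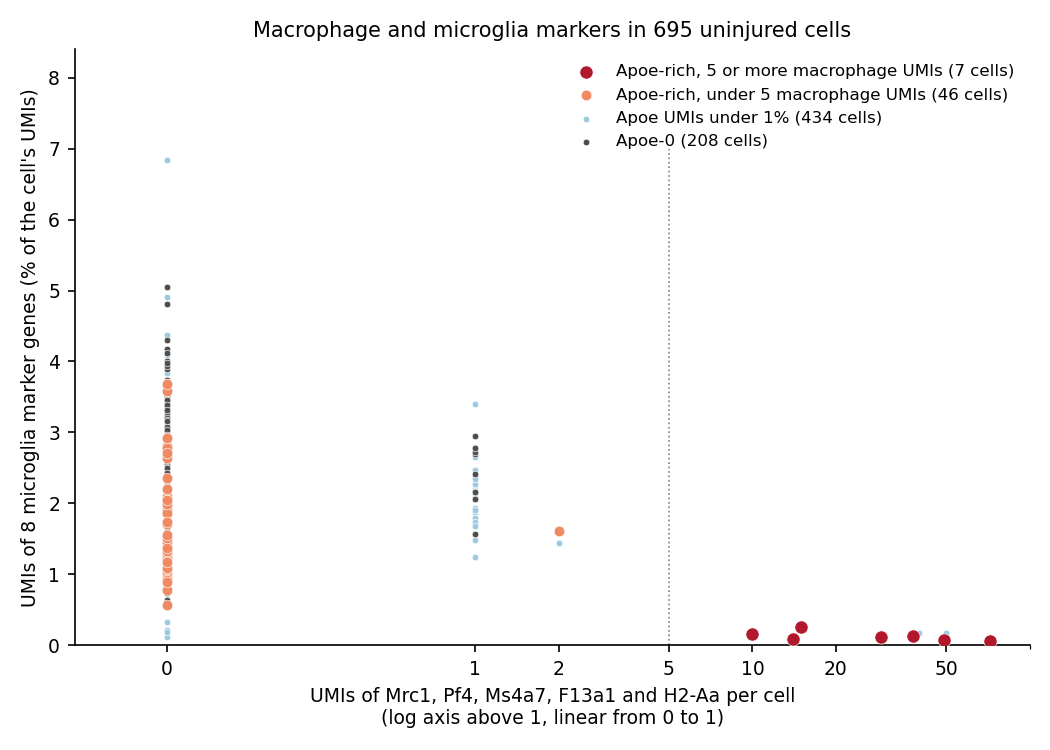
UMIs of Mrc1, Pf4, Ms4a7, F13a1 and H2-Aa per cell (x axis, log above 1 and linear from 0 to 1) against the share of UMIs from 8 microglia marker genes (y axis, percent) for the 695 kept uninjured cells. Each point is 1 cell and the dotted line marks 5 UMIs. The 7 Apoe-rich cells right of the line sit at 0.0590 to 0.254% microglia UMIs, and the 46 left of it at 0.568 to 3.69%.

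Counted gene by gene, 5 or more UMIs were reached by 0 members for Mrc1, 3 for Pf4, 2 for Ms4a7, 0 for F13a1 and 4 for H2-Aa, and by 0 members for all 5 genes at once. At least 1 UMI was present in 6 members for Mrc1, 7 for Pf4, 6 for Ms4a7, 5 for F13a1 and 6 for H2-Aa. Summed over the 5 genes, 7 members held 72, 49, 38, 29, 15, 14 and 10 UMIs. Of the other 46, 45 held 0 and 1 held 2, both of Ms4a7. No member lay between 2 and 10 UMIs, so thresholds of 3, 5 and 10 UMIs all gave 7 cells. Pf4 lies at chr5:90772435-90773383 and Ms4a7 at chr19:11321039-11336146. Pf4 and Ms4a7 were also taken as markers of the Apoe-rich cells, together with Cd74. They had UMIs in 7 and 6 of the 53, while Cd74 had UMIs in 33. Pf4 and Ms4a7 are among the 5 genes that defined the 7 cells, so their place there follows largely from that choice. Of the 6 cells with Ms4a7, 1 was among the 46. The same threshold of 5 macrophage UMIs was met by 2 further uninjured cells, with 40 and 50 UMIs and Apoe shares of 0.691 and 0.989%, which the 1% rule left out.

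The 7 cells differed from each other in which macrophage genes led. The cell with 19.4% Apoe carried most Ms4a7 (17 UMIs) and the most lysozyme Lyz2 (226 UMIs), with 1 Pf4 UMI and 10 UMIs of the MHC class II chain H2-Aa. The cell with 6.88% Apoe carried most Pf4 (23 UMIs), with 17 H2-Aa and 45 UMIs of the neutrophil-attracting chemokine Cxcl2. The cell with the lowest Apoe share, 2.18%, carried most class II RNA, with 68 H2-Aa, 129 H2-Ab1 and 312 UMIs of the class II invariant chain Cd74, but 2 Pf4 and 0 Ms4a7 UMIs. The cell with 2.43% Apoe was alike, with 28 H2-Aa, 36 H2-Ab1, 172 Cd74, 9 Pf4 and 0 Ms4a7 UMIs. At the other end the cell with 4.84% Apoe had 0 H2-Aa, 2 H2-Ab1 and 5 Cd74 UMIs, beside 7 Pf4 and 4 F13a1 UMIs. Each of the 7 thus held Pf4, and 6 held H2-Aa. No order by Apoe was shared by these genes.

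Apart from the 5 genes that defined the split, the 7 cells held more class II RNA than the 46, and more of several unrelated genes. Ratios are summed UMIs of the 7 cells over those of the 46, each relative to the total of its set (CPM), on the log2 scale, and a gene counted as measured with 20 or more UMIs over both sets. H2-Eb1, a class II beta chain, had 137 UMIs in the 7 and 2 in the 46 (8.70, 95% interval 6.82 to 11.76). H2-Ab1 had 207 and 9 UMIs (7.12, 6.17 to 8.27). Cd74 had 737 and 89 UMIs (5.65, 5.33 to 5.98). The interferon-inducible genes Ifitm2 and Ifitm3 had 43 and 39 UMIs in the 7 cells, against 5 and 14 in the 46, with 90.7 and 84.6% of those in the 7 from 3 cells. The monocyte-attracting chemokine Ccl7 had 18 and 3 UMIs (5.18), 16 of the 18 in 1 cell. Lyz2 had 513 and 391 UMIs (2.99, 2.80 to 3.18), so 14.2% of the members' UMIs carried 56.7% of their Lyz2. The lipopolysaccharide co-receptor Cd14 was higher by 2.01, Cxcl2 by 1.93 and the iron storage chain Fth1 by 1.50. Of their UMIs in the 7 cells, the 3 highest cells held 70.4% for Cd14, 88.8% for Cxcl2 and 86.4% for Fth1. For H2-Eb1, H2-Ab1, Cd74 and Lyz2 these shares were 94.2, 87.4, 80.7 and 77.0%. The ratios therefore describe the summed set and not each of the 7 cells.

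Microglial genes ran the other way in the 7 cells. P2ry12, a purinergic receptor of microglia, had 2 UMIs in the 7 and 348 in the 46 (-4.85, -7.90 to -2.98). Tmem119 had 2 and 269, the matricellular gene Sparc 2 and 339, and the receptor Gpr34 2 and 175 UMIs. Cst3, the protease inhibitor that leads microglial libraries, had 268 and 8975 UMIs (-2.47, -2.65 to -2.29), and was still at 10047 CPM in the 7 cells. Siglech and the protease inhibitor Serpine2 had 0 UMIs in the 7 cells and 88 and 102 in the 46, which bounds their ratios at or below -2.28 and -2.49. The lipid receptor Trem2, which microglia share with some macrophages, had 18 and 447 UMIs (-2.04, -2.80 to -1.36). C1qa, a complement chain made by microglia and by macrophages, differed by -0.53, and Cx3cr1, the locus that drives the label, by -1.45 (-3.36 to -0.02) with UMIs in 3 of the 7 cells.

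At 2-fold, 92 of 1210 measured genes were higher in the 7 cells (7.60%) and 266 lower (22.0%), with a median of -0.32 over all genes. Of the measured class II and costimulation genes, 5 of 8 were higher and 0 lower (median 3.73). They were H2-Eb1, H2-Aa (one of the genes that defined the split), H2-Ab1, Cd74 and H2-DMb1 (18 and 31 UMIs, 1.81), a chain of the peptide-loading chaperone. Of the homeostatic microglia genes 13 of 19 were lower and 0 higher (median -2.28), and the list summed to 13496 CPM in the 7 cells and 81552 CPM in the 46. All 5 measured border macrophage genes were higher, but Pf4 and Ms4a7 had defined the split. The other 3 were Wfdc17 (33 and 12 UMIs, 4.06), the membrane gene Ms4a6c (10 and 12 UMIs, 2.33) and the transcription factor Maf (5 and 15 UMIs, 1.01). Maf rests on 5 UMIs in the 7 cells and was itself lower in the 46 than in the Apoe-0 cells (-1.58). Of the 22 measured lysosomal genes 2 were higher and 5 lower, the lower ones including the cathepsins Ctss (-1.71) and Ctsd (-1.67). The damage-associated list was split, with 4 of 14 higher (Lgals3, Lyz2, Ccl6 and Fth1) and 4 lower (Trem2, Cd9, Cst7 and Ctsl), and a median of 0.25. Galectin-3 (Lgals3), with 25 and 10 UMIs, came from 3 of the 7 cells. Cst7 had 0 UMIs in the 7 cells and 46 in the 46.

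Markers of other lineages were counted in the 7 cells. Of the 25 border macrophage genes 22 had UMIs in them, and Stab1, Cd209f and Cd209b were at 0. The 22 include Mrc1, Pf4, Ms4a7 and F13a1, which had helped to choose the 7 cells. The 10 monocyte markers had 11 UMIs in 2 cells, with the classical monocyte genes Ly6c2, Plac8 and Chil3 at 0. The 9 dendritic cell, 9 neuron, 13 astrocyte, 10 endothelial and 6 fibroblast markers had 0 UMIs, as did those of T or NK cells. The 10 oligodendrocyte markers had 10 UMIs, or 375 CPM (180 to 689) in the 7 cells, against 161 CPM in the 46 and 280 CPM in the Apoe-0 cells. The 7 cells ranged from 1279 to 6761 UMIs, and a doublet caller marked 0 of them.

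**Figure D2:**
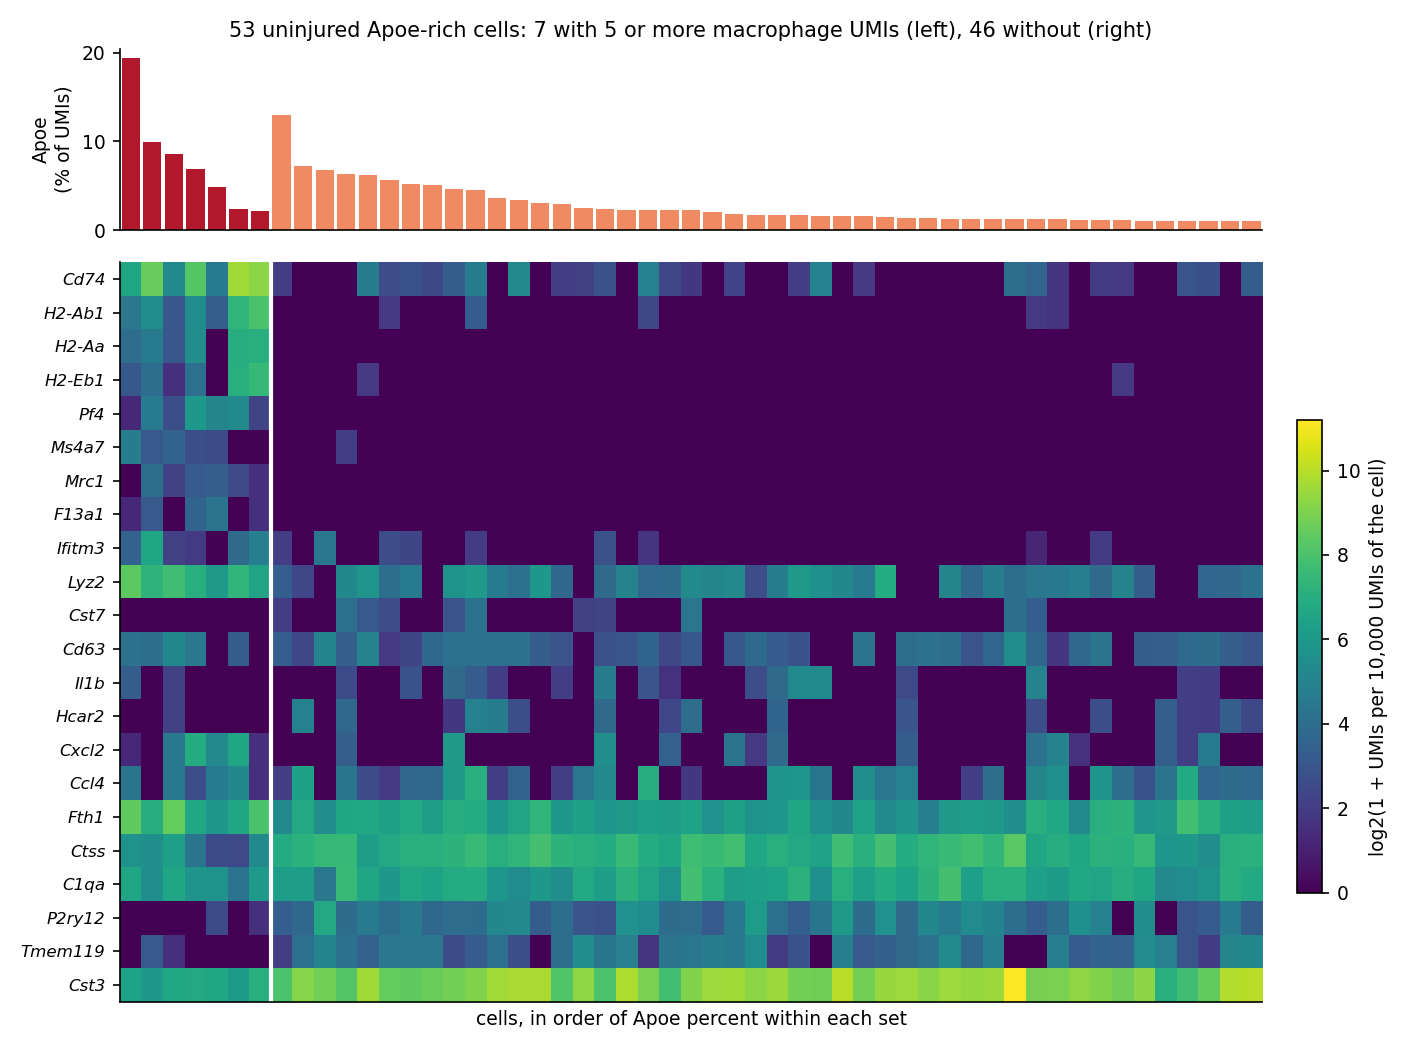
Apoe share of UMIs (bars, percent) and 22 genes (rows, log2 scale, scaled to the depth of the cell) in each of the 53 Apoe-rich cells (columns). The 7 cells left of the white line carry class II and border macrophage genes, with H2-Aa in 6 of them. Cst3 is present in every cell of both sets, and P2ry12 in 44 of the 46 cells right of the line and 2 of the 7. Each set is in order of Apoe share.

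As 1 group, the 53 cells mixed both profiles. Against the 208 Apoe-0 cells, 125 of 3942 measured genes were past 2-fold higher (3.17%) and 395 past 2-fold lower (10.0%). H2-Aa (6.88), H2-Eb1 (6.24), H2-Ab1 (5.61) and Cd74 (4.67) were among the highest. Yet the 7 cells held 100% of the members' H2-Aa (a gene of the split), 95.8% of their H2-Ab1 and 89.2% of their Cd74 UMIs. They held 0% of the Cst7 and 8.08% of the Il1b UMIs. The 46 cells alone, against the same Apoe-0 cells, had 93 of 3850 measured genes past 2-fold higher (2.42%) and 358 past 2-fold lower (9.30%), and the median was -0.12. Of 8 measured border macrophage genes 5 were higher and 2 lower in the 53 cells (median 1.28). The 46 cells alone gave 0 higher and 2 lower of 5 (median -0.78). Pf4 and Ms4a7, among the 5 higher genes, had defined the split, which set part of this difference. With a minimum of 50 UMIs the median of the 53 turned to -1.39. The growth factor and matrix genes gave 5 of 8 higher in the 53 (median 1.41) and 1 of 5 in the 46 (median -0.25), and at 50 UMIs the median of the 53 turned to -0.47. Lgals3, Lgals1, Spp1 and Tgfbi made that difference, and all but Tgfbi were no longer measured without the 7 cells. In the damage-associated list 7 of 17 were higher in the 53 and 4 of 14 in the 46, where Lgals3, Spp1 and Lpl were no longer measured. All further comparisons with Apoe-0 cells are of the 46.

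The 46 Apoe-rich cells with under 5 macrophage UMIs carried more Cst7, Il1b, Lyz2, Cd63 and Hcar2 than the 208 Apoe-0 cells, together with microglial genes. Cst7, the protease inhibitor cystatin F that microglia turn on near damage, had 46 UMIs in 11 of the 46 cells and 4 UMIs in 3 of the 208, or 285 and 7.83 CPM (log2 ratio 5.18, 95% interval 3.73 to 7.12). Il1b, the interleukin-1 beta precursor, had 91 UMIs in 17 cells and 31 UMIs in 19 cells, or 564 and 60.7 CPM (3.21, 2.61 to 3.85). Both lie on chromosome 2, at chr2:150570415-150578944 and chr2:129364570-129371139. Lyz2, which cuts bacterial cell walls, had 391 and 255 UMIs, or 2422 and 499 CPM (2.28, 2.05 to 2.51). Its median was 6.5 UMIs a cell in the 46, with a highest value of 41, and 1 UMI in the Apoe-0 cells, with a highest value of 8.

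Cd63, Hcar2, Cd74 and Cxcl2 had smaller ratios. Cd63, a tetraspanin of late endosomes, had 173 and 172 UMIs, or 1072 and 337 CPM (1.67, 1.36 to 1.98), and was present in 40 of 46 and 104 of 208 cells. Hcar2, the receptor for hydroxybutyrate and niacin, had 73 and 69 UMIs (1.74, 1.25 to 2.24). Cd74 had 89 and 88 UMIs, or 551 and 172 CPM (1.68, 1.24 to 2.12). H2-Aa had 0 UMIs in the 46 and 3 in the 208, too few to compare. It is also a gene of the split, which limited its UMIs in the 46. Against all 434 cells with Apoe UMIs under 1%, the Cd74 ratio was -0.26. Cxcl2 had 141 and 151 UMIs (1.56, 1.22 to 1.90), but 64.5% of its UMIs came from 3 cells, and without the highest cell (53 UMIs) its ratio was 0.96. Genes with higher ratios on fewer UMIs included the nuclear lamina gene Lmnb1 (17 and 10 UMIs, 2.43). The urokinase receptor Plaur (15 and 10 UMIs, 2.25) and the cytokine Osm (22 and 22 UMIs, 1.66) were also past 2-fold. Ccl5, with 16 UMIs in the 46 and 6 in the 208 (3.08), had all 16 in 3 cells.

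The damage-associated genes that microglia are best known for were uneven. Of 14 measured genes of that list 4 were higher and 0 lower (median 0.33), namely Cst7, Lyz2, Cd63 and the surface protein Cd52 (187 and 286 UMIs, 1.05, 0.77 to 1.32). Fth1 (0.62) and the cathepsin Ctsb (0.61) were higher by less than 2-fold. Trem2 differed by 0.23 (0.07 to 0.38). The receptor tyrosine kinase Axl and the lipoprotein lipase Lpl had too few UMIs to be measured, although their ratios were high. Axl had 12 and 2 UMIs (11 of 46 and 2 of 208 cells), a ratio of 4.25. Lpl had 14 and 4 UMIs (8 and 4 cells), a ratio of 3.47. Against cells with Apoe UMIs under 1% these ratios were 1.61 and 0.39. Osteopontin (Spp1), also too low to be measured, had 6 and 11 UMIs, a ratio of 0.79 whose interval (-0.93 to 2.35) spans 0. Gpnmb and Igf1 had 0 UMIs in the 46 cells.

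**Figure D3:**
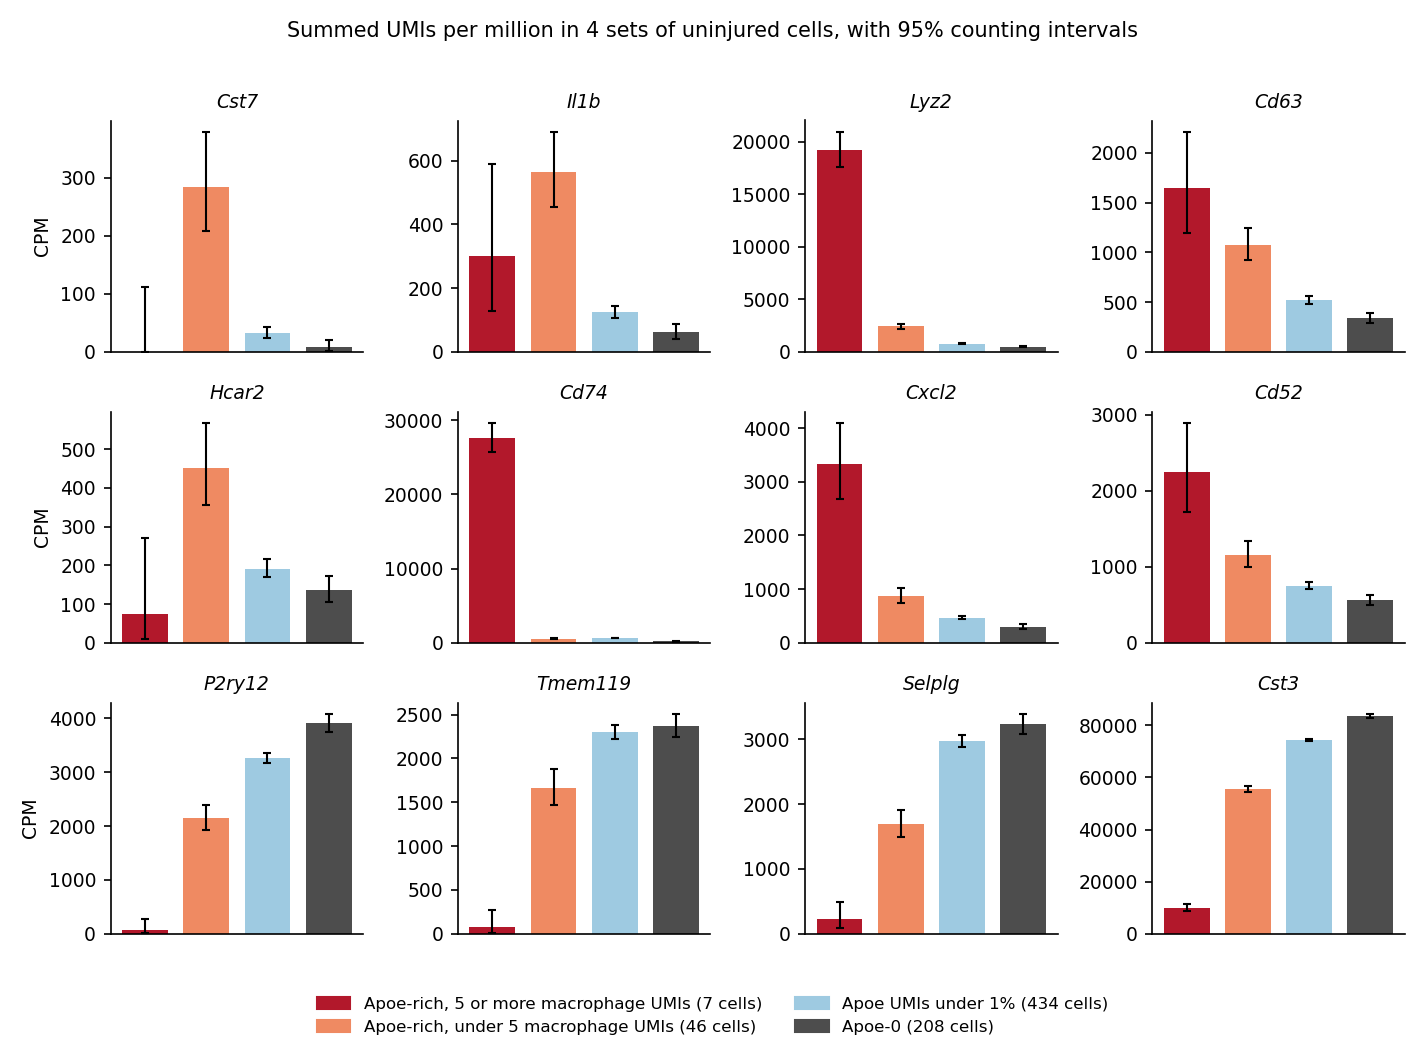
CPM (y axis, linear, from 0) of 12 genes summed over 4 sets of uninjured cells. Error bars are exact 95% Poisson intervals, and for a set with 0 UMIs the bar ends at the level of 3 counts. Cst7, Il1b and Hcar2 are highest in the 46 cells with under 5 macrophage UMIs, Cd74 and Lyz2 in the 7 cells with more, and P2ry12, Tmem119, Selplg and Cst3 in the Apoe-0 cells.

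Homeostatic microglia genes were lower in the 46 cells by small steps. P2ry12 had 348 UMIs in the 46 (median 6 a cell) and 1998 in the 208 (median 9), or 2155 and 3913 CPM (-0.86, -1.03 to -0.70). Selplg, a leukocyte adhesion glycoprotein, differed by -0.94 (-1.13 to -0.75) and Cx3cr1 by -0.79 (-1.19 to -0.40). Cst3 had 55588 and 83757 CPM (-0.59, -0.62 to -0.56). Tmem119 differed by -0.51. Of the 20 measured genes of the list 2 were past 2-fold lower and 0 higher (median -0.55), a share close to the 9.30% over all genes. These were the lens crystallin gene Crybb1 (26 and 209 UMIs, -1.35, -1.99 to -0.75) and the fructose transporter Slc2a5 (21 and 147 UMIs, -1.15). P2ry12 was present in 44 of the 46 cells and 204 of the 208. The members' 8 microglia markers summed to a median of 1.85% of UMIs (0.568 to 3.69%), against 2.35% in Apoe-0 cells (0.642 to 5.05%).

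Other genes past 2-fold lower were the platelet glycoprotein gene Gp9 (4 and 66 UMIs, -2.38, -4.30 to -0.96), the adaptor Grap (11 and 124 UMIs, -1.83), the transcription factor Maf (15 and 142 UMIs, -1.58, -2.46 to -0.81) and the engulfment regulator Elmo1 (9 and 88 UMIs, -1.63). Maf stands in the border macrophage list but is also a microglial gene, with 142 UMIs in the Apoe-0 cells. It and Gas6, a ligand of Axl and Mertk, were the 2 lower genes of that list, and 18 of its 25 genes had 0 UMIs in the 46 cells. Mrc1, Pf4 and F13a1, which had helped to define the split, were among these 18. Most of the 93 higher and 358 lower genes rest on few UMIs, since with a minimum of 50 UMIs 21 were higher and 54 lower.

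Over all genes 2.42% were higher and 9.30% lower, the background for the counts that follow, and the lysosomal and complement shares were near it. The cytokine and chemokine genes had 4 of 14 higher and 0 lower (median 0.34). These were Ccl5, Il1b, Cxcl2 and the membrane chemokine Cxcl16 (27 and 31 UMIs, 1.46). The chemokine Ccl4, with 463 and 1176 UMIs, differed by 0.32 (0.16 to 0.47), but by -0.30 against cells with Apoe UMIs under 1%. The class II and costimulation genes had 2 of 6 higher (median 0.49), Cd74 and H2-Ab1, the second on 9 and 12 UMIs, and both reversed against cells with Apoe UMIs under 1%. Interferon response genes had 3 of 9 higher (median 0.04), Ifitm3, Isg15 and Ifi204, each with at most 20 UMIs in the 46. Lipid handling had 1 higher and 1 lower of 8 (median 0.36). The cholesterol exporter Abca1 had 10 and 11 UMIs (1.52), and the lipoprotein receptor Lrp1 had 3 and 40 (-2.08). When cells were thinned to 1500 UMIs the Abca1 ratio was -0.22. Cholesterol synthesis had 0 of 6 past 2-fold in either direction, with a median of 0.73. Lysosomal genes had 1 of 28 higher (Cd63) and 0 lower (median 0.21), complement and phagocytic receptors 0 higher and 1 lower of 18 (median -0.03), and oxidative stress and iron genes 1 of 11 higher (Mt2, median 0.28). MHC class I had 0 of 8 and the early response genes that digestion can induce 0 of 24 past 2-fold (median -0.18). Of S phase genes 0 of 3 measured were past 2-fold, and 0 of 18 G2 and M phase genes were measured.

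**Figure D4:**
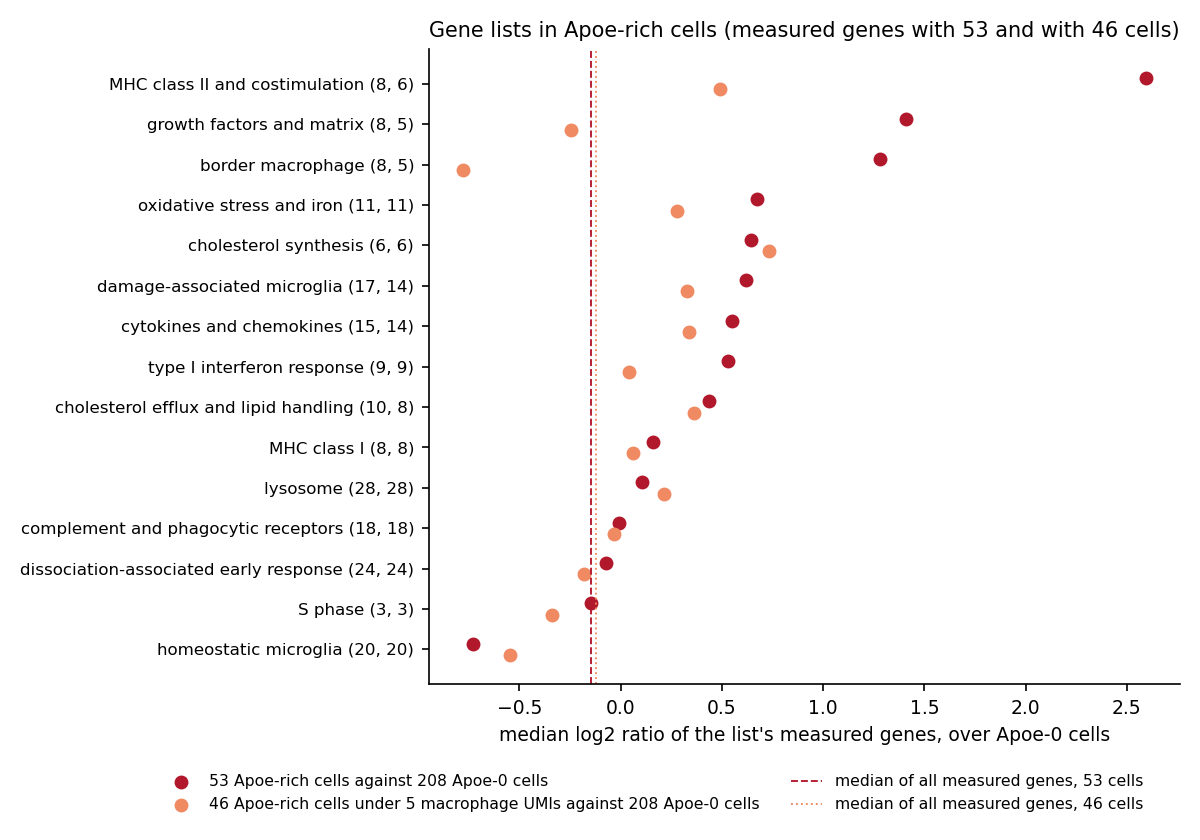
Median log2 ratio over Apoe-0 cells (x axis) of the measured genes of 15 lists (y axis, number of measured genes in brackets for the 53 and the 46 cells). Dots are medians, and the vertical lines are the medians of all measured genes. The lists for class II, growth factors and matrix, and border macrophages differ most between the 53 cells and the 46 left when the 7 are taken out. Genes of the class II and border macrophage lists had defined the 7.

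Cells that the rule left out are given by their Apoe share. Without the 9 cells with 5 or more macrophage UMIs, the uninjured cells were grouped by Apoe share into 0 (208 cells), above 0 to 0.5% (402), 0.5 to 1% (30), 1 to 2% (25) and 2% or more (21). In that order Lyz2 was at 499, 600, 1098, 2172 and 2717 CPM, and Il1b at 60.7, 120, 173, 594 and 527 CPM. Cd63 was at 337, 468, 1237, 1109 and 1027 CPM, so its level in the 30 cells just under the threshold was as high as in the members. Cst7 was at 7.83, 33.8, 0, 91.4 and 514 CPM, with 0 UMIs in the 30 cells. Hcar2 was at 135, 193, 173, 251 and 689 CPM. Cd74 was at 172, 244, 682, 320 and 825 CPM and Plaur at 19.6, 35.4, 139, 91.4 and 94.6 CPM, neither in the order of Apoe share. Cd74 was higher in the 30 cells under the threshold than in the 25 just above it, and the intervals of Plaur in these overlapped. Cst7 and Hcar2 were thus highest in the 21 cells with the most Apoe, while Il1b and Lyz2 were already high between 1 and 2%.

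The homeostatic genes were lower toward the high end of the same order. Cst3 was at 83757, 75304, 66835, 62401 and 47531 CPM, lower at each step. Selplg was at 3237, 3031, 2288, 1898 and 1446 CPM. P2ry12 was at 3913, 3347, 2242, 2298 and 1987 CPM, and Tmem119 at 2375, 2348, 1757, 1749 and 1568 CPM. For P2ry12 and Tmem119 the largest step lay at 0.5% Apoe, below the threshold, and for Cst3 at 2%. Trem2 was at 2368, 2400, 2462, 2743 and 2798 CPM, and C1qa at 9314, 9286, 8113, 10139 and 10382 CPM. The median depth of the 5 ranges was 2466.5, 3195.5, 2554, 3611 and 3232 UMIs, which did not follow the same order.

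Set against the 432 cells with Apoe UMIs below 1% and under 5 macrophage UMIs, a reference chosen after seeing the data, the 46 cells differed in the same genes by less. Cst7 was at 285 and 31.7 CPM (3.17, 2.54 to 3.80), Lyz2 at 2422 and 631 CPM (1.94, 1.76 to 2.11) and Il1b differed by 2.19 (1.81 to 2.57). Cd63 (1.05), Hcar2 (1.24), Osm (1.20) and Plaur (1.15) stayed above 1, while Cxcl2 (0.94), Cd52 (0.65) and H2-Ab1 (0.49, -0.71 to 1.52) did not. Cd74 was at 551 and 271 CPM (1.02, 0.67 to 1.36). With the 2 left-out macrophage-rich cells added back to the reference, its ratio was -0.26, since those 2 cells held 547 of the 923 Cd74 UMIs below the threshold. They also held 95 of the 150 H2-Ab1 UMIs there. Spp1 had 6 UMIs in the 46 and 153 in the 432 (-1.57, -3.04 to -0.41).

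The 46 cells were uneven among themselves. Cst7 was present in 11, with 1, 10, 3, 2, 5, 6, 1, 2, 8, 1 and 7 UMIs in order of falling Apoe share. The 11 had a median Apoe share of 4.55% (lowest 1.23%), and the 35 without Cst7 of 1.54% (1.00 to 7.25%), at median depths of 3873 and 3262 UMIs. Cd74 was present in 10 of the 11 and 16 of the 35, and Axl in 6 of the 11 and 5 of the 35. P2ry12 was at 1284 CPM in the 11 and 2536 CPM in the 35, and Cst3 at 47312 and 59202 CPM. Lpl did not follow Cst7, with UMIs in 2 of the 11 and 6 of the 35.

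Il1b marked a set that overlapped this one in part. Of the 17 cells with Il1b 5 also had Cst7, 11 had Hcar2 and 10 had Cxcl2. The cells with and without Il1b had median depths of 3774 and 3133 UMIs. Counted over Cst7, Il1b, Hcar2, Cxcl2, Plaur and Osm, 11 of the 46 cells had UMIs of 0 of these 6 genes, 14 of 1, 9 of 2, 6 of 3, 2 of 4, 3 of 5 and 1 of all 6. Among Apoe-0 cells the counts were 133, 58, 13 and 4 for 0 to 3 genes, and 0 cells had more. Depth moved with this count: the 11 members with none had a median of 1199 UMIs and the 3 with 5 of 7722 UMIs. Its part in the count was not tested beyond the thinning that follows.

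Thinned to 1500 UMIs a cell, which left out 9 of the 46 members and 49 of the 208 Apoe-0 cells, the shares of cells kept their order. Cst7 was present in 21.6% of the members (exact interval 9.83 to 38.2%) and 0.629% of the Apoe-0 cells (0.0159 to 3.45%), against 23.9 and 1.44% unthinned. Lyz2 was present in 86.5% (71.2 to 95.5%) and 52.8% (44.8 to 60.8%), Cd63 in 73.0 and 35.8%, Hcar2 in 43.2 and 10.7%, Cd74 in 37.8 and 15.7%, and Il1b in 21.6 and 5.66%. Unthinned these were 84.8 and 61.5% for Lyz2, 87.0 and 50% for Cd63, 39.1 and 10.6% for Hcar2, 56.5 and 20.7% for Cd74, and 37.0 and 9.13% for Il1b. Crybb1 was present in 13.5 and 44.0% thinned, and 32.6 and 54.8% unthinned. P2ry12 was in 97.3 and 97.5% of the thinned cells, so its difference was one of level and not of presence.

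Free RNA in the droplets was gauged in the 4 uninjured barcodes with 5 or more UMIs of endothelial, pericyte, fibroblast, oligodendrocyte precursor or neuron markers, at a median of 1737 UMIs. All 4 held Apoe, at a median share of 0.0876% and a highest of 0.503%, so a low Apoe share in this library is not by itself expression. None reached 1%. Cst7, Il1b, Hcar2, Cd63, Cd74, Cxcl2, Axl and Lpl had 0 UMIs in the 4, while Lyz2 had 2 UMIs, P2ry12 3 and Cst3 73. The 4 barcodes hold few UMIs in all, so 0 UMIs there cannot gauge the free RNA of genes at low levels. Astrocytes, which make much Apoe, were looked for in the members: 11 of the 13 astrocyte markers were at 0 in the 46 cells and the other 2 summed to 68.1 CPM, against 97.9 CPM in the Apoe-0 cells. Oligodendrocyte markers summed to 161 and 280 CPM, endothelial markers to 24.8 and 49.0 CPM, and neuron markers had 0 UMIs in the 46. Neutrophil markers had 23 UMIs in the 46, all of the cytokine receptor Csf3r, which microglia also carry (142 and 208 CPM). A doublet caller marked 3 of the 46 cells and 2 of the 208.

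The injured library, 5 days after lysolecithin, held many more Apoe-rich cells by the same rule, 329 of 577 (57.0%, 52.9 to 61.1%), and 0 cells with no Apoe UMI. Of these, 21 had 5 or more macrophage UMIs (3.64% of the library) and 308 had fewer (53.4%). Set side by side, the 46 uninjured and the 308 injured cells with under 5 macrophage UMIs had pooled Apoe levels of 27469 and 41565 CPM and summed Cst7, Il1b and Lyz2 levels less than 2-fold apart. Cst7 was at 285 CPM in uninjured and 537 CPM in injured cells, Il1b at 564 and 506 CPM, and Lyz2 at 2422 and 2643 CPM. The uninjured cells were shallower, with a median of 3467.5 UMIs against 5841.5 in the injured cells. Fewer uninjured cells held Cst7, 23.9% against 73.1% in injured cells, and 21.6% (9.83 to 38.2%) against 42.0% (36.4 to 47.8%) when thinned to 1500 UMIs. Il1b was present in 21.6 and 32.2% and Lyz2 in 86.5 and 85.7% of the thinned cells, and in 37.0 and 55.2% and in 84.8 and 99.4% unthinned. At 2-fold, 741 of 6278 measured genes were higher in the uninjured cells (11.8%) and 787 lower (12.5%), with a median of 0.01.

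Several growth factor, matrix and lipid genes were past 2-fold lower in the uninjured than in the injured Apoe-rich cells. Spp1 had 6 UMIs in 5 of the 46 uninjured cells and 31357 UMIs in 294 of the 308 injured cells, or 37.2 and 16104 CPM (-8.76, -10.21 to -7.64). The growth factor Igf1 and fibronectin (Fn1) had 0 UMIs in the uninjured cells and 553 and 421 in the injured. With the uninjured cells set to a floor of 3 counts the ratios were -3.93 and -3.54. Gpnmb, a lysosomal glycoprotein of lipid-laden macrophages, had 0 and 311 UMIs, or -3.10 at the same floor. The lipid droplet protein Plin2 had 9 and 1186 UMIs (-3.45), the fatty acid carrier Fabp5 5 and 524 (-3.12), the cholesterol hydroxylase Ch25h 5 and 995 (-4.04) and Lpl 14 and 1219 (-2.85, -3.73 to -2.10). Of the lipid handling genes 9 of 18 were lower and 0 higher (median -1.10), and of the growth factor and matrix genes 9 of 14 lower and 1 higher (median -2.57).

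Interferon response genes were lower in uninjured cells in 19 of 20 measured cases and higher in 0 (median -2.30), led by Usp18, a protease that trims ISG15 from proteins (1 and 269 UMIs, -4.48). The damage-associated list had 0 of 24 higher and 10 lower (median -0.95). Cd63 differed by -1.29 and Ctsb by -1.35. Axl, with 12 and 194 UMIs, differed by -0.42 (-1.40 to 0.41). Homeostatic, cholesterol synthesis, early response and class II lists had medians above 0. Of the homeostatic genes 12 of 20 were higher and 1, Fcrls, lower (median 1.18). Cst3 was at 55588 and 12652 CPM (2.14), P2ry12 at 2155 and 592 CPM (1.87, 1.69 to 2.04) and Tmem119 at 1666 and 639 CPM (1.38). Cholesterol synthesis had 6 of 7 genes higher and 0 lower (median 1.61), each on 19 or fewer UMIs in the uninjured cells, among them the regulator Insig1 (19 and 73 UMIs, 1.65). Early response genes had 9 of 24 higher (median 0.85), such as the heat shock gene Hspa1a (313 and 815 UMIs, 2.21) and Jun (200 and 810 UMIs, 1.57), which tissue digestion can also induce. Class II and costimulation genes had 2 of 7 higher, H2-Oa (20 and 64 UMIs, 1.91) and Cd80 (4 and 18 UMIs, 1.42), and 0 lower (median 0.72).

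**Figure D5:**
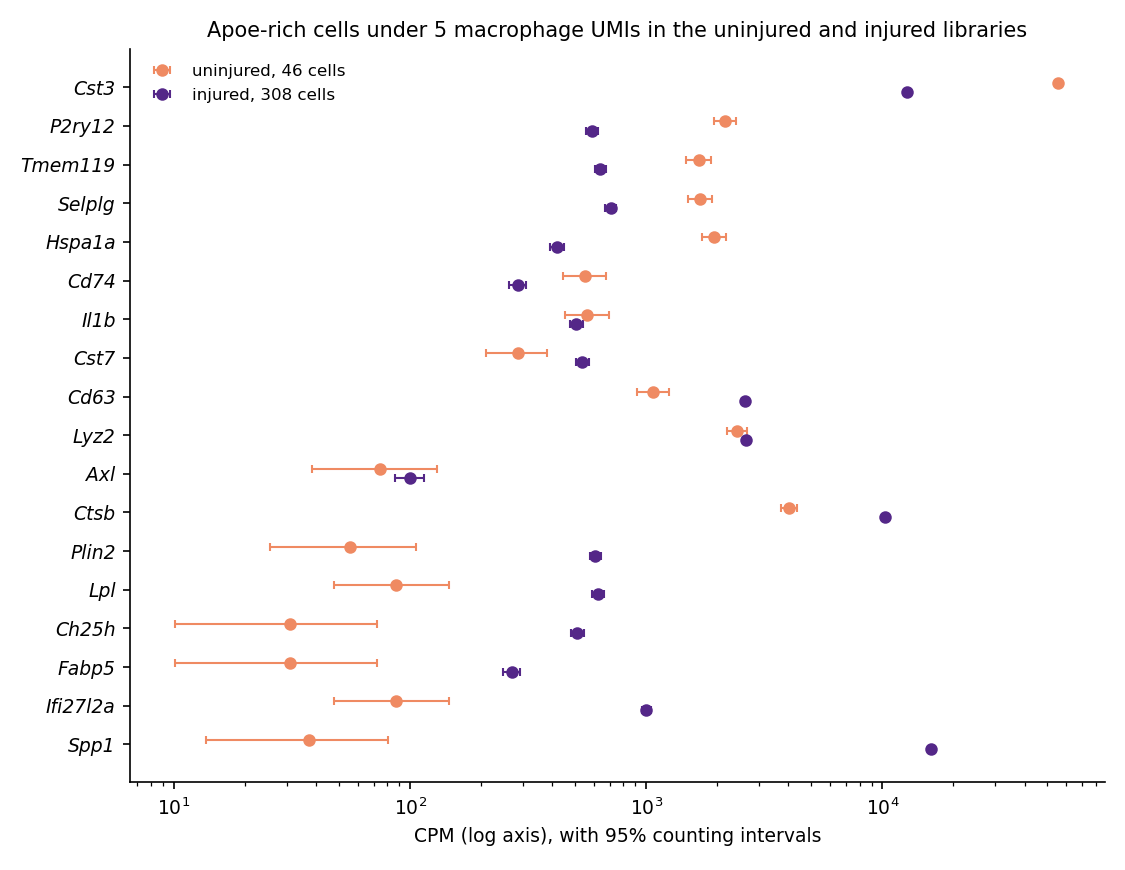
CPM (x axis, log scale) of 18 genes (y axis) in the 46 uninjured and the 308 injured Apoe-rich cells with under 5 macrophage UMIs. Bars on the points are exact 95% Poisson intervals. Spp1 is at 37.2 CPM in uninjured and 16104 CPM in injured cells, P2ry12 at 2155 and 592 CPM, and Lyz2 at 2422 and 2643 CPM.

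Counted over all Apoe-rich cells, the 53 uninjured against the 329 injured, 680 of 6528 genes were higher (10.4%) and 774 lower (11.9%). The class II genes were then far higher in the uninjured set, with 4391 and 323 CPM of Cd74 (3.76, 3.61 to 3.91), 139 and 7 UMIs of H2-Eb1 (7.78) and 130 and 15 UMIs of H2-Aa (6.58). The 46 and 308 cells with under 5 macrophage UMIs, among which Pf4 had UMIs in 0 of the 46 and 50 of the 308, gave 0.95 (0.61 to 1.27) for Cd74, so most of the class II difference lay in 7 cells. The border macrophage list had 5 of 14 higher and 3 lower in the 53 (median 0.11). Pf4 (2.36) and Mrc1 (3.75) were higher, with all their UMIs among the 53 in the 7 cells, which both genes had helped to define. Ms4a7 differed by 0.69 and the endocytic adaptor Dab2 by -1.78.

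The libraries also differed in sex make-up. Xist, the RNA that coats the inactive X chromosome of females, had 1 UMI in the 46 uninjured cells and 480 in the 308 injured cells (-5.31), while the Y-linked Eif2s3y (1.32) and Ddx3y (1.06) were higher in the uninjured cells. Within the uninjured library 21 members had Y-linked UMIs only, 0 had Xist only, 1 had both and 31 had neither, against 52, 2, 1 and 153 of the Apoe-0 cells. The difference between the libraries in injury therefore cannot be told apart from one in sex or in animals, with 1 library for each. Counts of genes with near-identical copies, among them Hspa1a and Hspa1b, are uncertain where reads could match both.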

How the data were processed

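Single-cell 3′ libraries were made from sorted tdTomato-positive spinal cord cells, 1 uninjured and 1 injured. The submitters' processing notes name Cell Ranger 2.0.1, STAR and Seurat 2.1.0, and the builds GRCm38.p5 and mm10. The deposited count matrices hold whole UMI counts of 27998 genes in 705 uninjured and 580 injured barcodes. They were used as the authors deposited them, with no normalization found in the values. Whether doublets were removed before deposit is not given in the sources used here.

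Barcodes were kept from 200 genes upward and up to 10% mitochondrial UMIs (10 uninjured and 3 injured removed). Members had Apoe at 1% of UMIs or more. UMIs were summed over a set of cells and divided by its total (CPM). Ratios carry exact Clopper-Pearson 95% intervals from both counts. A set with 0 UMIs was placed at a floor of 3 counts over the set. Its ratio is a bound at that floor and not the 95% limit, and enters list medians as such. A gene was measured at 20 UMIs over both sets and counted at 2-fold, a rule of size and not a test. Apoe was left out of counts against Apoe-0 cells, and 56 symbols with several identifiers were not analysed. Named genes were the 12 highest and 12 lowest by the interval bound nearest 0 with UMIs in at least 5 cells of the higher set, up to 4 per gene list, and 22 further genes. Other genes, such as the list members past 2-fold and those of the single cells, were named after their values were seen. The members and the 17 gene and 19 cell type lists were chosen with earlier results of these data known. Python 3.11.15, numpy 2.4.6, scipy 1.17.1, pandas 2.3.3 and scanpy 1.11.5 (Scrublet, as an alternative only) were used. The ratio and its interval were tested on simulated Poisson counts, the model that the interval assumes. Spread between cells was left out of that simulation. Alternatives changed the thresholds, depth, scaling (TMM), reference cells and gene minimum.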

Additional observations from a re-analysis of the deposited data

How the results depend on the processing

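The 53 members became 85 with an Apoe threshold of 0.5% and 28 with 2%. The 7 cells with macrophage UMIs became 9 at 0.5%, 6 without H2-Aa and 5 when thinned, and stayed at 7 otherwise. Counts past 2-fold depend on the reference and the gene minimum. Against all cells under 1% they were 255 higher and 918 lower for the 53, and 259 and 853 for the 46. Against cells with Apoe UMIs under 1% they were 198 and 764, and 202 and 805. At a minimum of 50 UMIs they were 33 and 70, and 21 and 54, and at 1 UMI 1188 and 1055, and 1116 and 938. Thinning gave 66 and 253 for the 53, and a threshold of 2% gave 144 higher for the 46. Of the values past 2-fold, signs reversed for Mertk in the 53 (0.079) and Abca1 in the 46 (-0.22) when thinned. They also reversed for Spp1 in the 53 (-0.13 against all cells under 1%, -0.48 against those with Apoe UMIs), H2-Ab1 in the 46 (-0.61 and -0.95) and Cd74 in the 46 (-0.26 against those with Apoe UMIs). Smaller ratios in the 46 also changed sign, such as Ccl4 (-0.30) and Spp1 (-1.58) against cells with Apoe UMIs under 1%, and Ms4a6c (-1.36) and Fdps (-0.70) when thinned. At 50 UMIs the medians of the 53 were -1.39 for border macrophage and -0.47 for growth factor and matrix genes. The cause was not tested, apart from the Cd74 and H2-Ab1 UMIs of the 2 macrophage-rich cells in the report. In all 13 settings for the 46, which include other reference cells, Cst7 (3.17 to 6.04), Il1b (2.19 to 3.31), Lyz2 (1.65 to 2.44), Cd63 (1.05 to 1.75), Hcar2 (1.24 to 2.35), Crybb1 and Maf kept their direction past 2-fold. Cxcl2 (0.89 to 2.01) did so in 10 and Cd74 in 11. No paired analysis was possible because each condition has 1 library. Depth limits genes near 20 UMIs, where 1 cell can carry a ratio.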
